A study of Mus musculus with 6 samples.

Results

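The genes described here are 6 of the suppressor of cytokine signaling (SOCS) family, Cish, Socs1, Socs2, Socs3, Socs5 and Socs7, and the 3 PIM kinase genes, Pim1, Pim2 and Pim3, in regulatory T cells (Tregs) of mouse tumors. They are the 9 rows of a table of 23420 genes that carry these symbols. The members were chosen by name as cytokine-induced feedback and survival genes, with the differences between anti-PD-1 and untreated libraries already in view. Their values under that contrast are therefore given as a description and support nothing by themselves. All 9 passed the filter on low counts.

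The cells came from tumors that T11 cells, a claudin-low line of triple-negative breast cancer, had formed in BALB/c Foxp3-GFP mice, whose Foxp3-expressing cells are green. Each mouse was injected with 10000 tumor cells. One group was left untreated, and the other was given 200 µg of J43, an antibody against the receptor PD-1, into the peritoneum 2 times a week. Tumors of both groups were taken at 150 mm2 and digested with enzymes, and GFP-positive cells were sorted for RNA sequencing. Libraries 1, 2 and 3 are untreated, and libraries 4, 5 and 6 were made after anti-PD-1. The labels give neither the age nor the sex of the mice, nor say that each library is a mouse of its own. Errors and p-values below measure the spread between libraries, part of which may be technical. Depth was 4766533 to 6686774 counts per library, and every untreated library was deeper than every anti-PD-1 library.

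SOCS proteins close a feedback loop. A cytokine binds its receptor, JAK kinases phosphorylate STAT transcription factors, and the STATs switch on SOCS genes whose products then block the JAKs or the receptor, or hand them to a ubiquitin ligase through a C-terminal SOCS box. Cish and Socs2 are best known as targets and brakes of STAT5, Socs1 as a brake on interferon and interleukin-2 signaling, and Socs3 as a brake on receptors that use gp130 and STAT3. PIM proteins are serine/threonine kinases without a regulatory domain, so their activity follows the amount of protein, and they promote survival, translation and growth after cytokine signals. Tregs depend on interleukin-2 and STAT5, and loss of Socs1 in Tregs is known to disturb their stability.

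The STAT motif is shown first, since it is the sequence through which cytokines are known to reach some of these genes. RefSeq promoter windows (assembly GRCm38.p6, 250 bases before to 50 bases after the gene's start) were matched by symbol for 6 members. Socs2, Socs5 and Socs7 had no entry. The motif searched was TTCNNNGAA, which reads the same on both strands. It was present in 2 of these 6 genes, Cish and Socs3, against 9.55% of the 27025 genes in the table (8.30% of its 32851 windows). The capitals below mark each match.
Cish: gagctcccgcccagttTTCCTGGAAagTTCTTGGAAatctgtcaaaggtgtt
Socs3: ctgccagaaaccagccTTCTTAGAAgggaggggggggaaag
The Cish stretch lies at chr9:107296643-107296694 (plus strand) and the Socs3 stretch at chr11:117969496-117969536 (minus strand).

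Cish held 2 matches, at bases 1 to 9 and 12 to 20 counted from the RefSeq start as base 1. That start lies 30 bases before the gene's start in the deposited table. The first of them also fits the stricter form TTCCNGGAA, found in 1.15% of all windows. In Socs3 the match ends 146 bases before the start. No match was found in the windows of Socs1, Pim1 (2 windows), Pim2 and Pim3, which says only that these letters are not in those windows. An AP-1 motif (TGANTCA, both strands, in 7.81% of all windows) and a cyclic AMP response element (TGACGTCA, 1.79%) were found in none of the members' windows, nor was TATAAA (13.6%).

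Before any comparison, the levels of the 9 genes were set side by side per kilobase of exon, as CPM per kb (CPM being counts scaled to a common library total with TMM, a correction for composition). Pim1 was by far the most abundant member, at 284 ± 47.9 CPM per kb in untreated Tregs (SD, n = 3), which was above 98.7% of the 10352 genes tested. Cish followed at 46.0 ± 8.70 CPM per kb. Then came Socs3 at 24.3 ± 2.00, Socs1 at 23.6 ± 8.30, Socs2 at 19.7 ± 2.91 and Socs5 at 15.3 ± 4.74 CPM per kb. Among these 4 genes, neighbors in the order overlapped in their library values. Pim2 (7.33 ± 1.84), Pim3 (6.97 ± 3.70) and Socs7 (3.46 ± 0.87) lay lowest, again with overlap between neighbors, and Socs7 stood above 27.3% of tested genes. Between Socs5 and Pim2 there was a gap without overlap.

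The order of the first 6 genes was the same in anti-PD-1 libraries. Pim1 stood there at 299.6 ± 6.10 and Cish at 54.2 ± 6.77 CPM per kb. The values of Socs3 (47.5 ± 18.7 CPM per kb) now reached into those of Cish, whereas in untreated libraries every Cish value lay above every Socs3 value. Pim3 (10.7 ± 3.41) and Pim2 (6.96 ± 2.83) changed places, with overlapping values in both groups, and a gap without overlap lay between Socs1 (32.9 ± 11.1) and Socs2 (17.0 ± 3.31). Of the summed PIM level, Pim1 made up between 92.5% and 96.5% in each of the 6 libraries, so that in these Tregs the PIM mRNA was almost wholly Pim1.

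**Figure D1:**
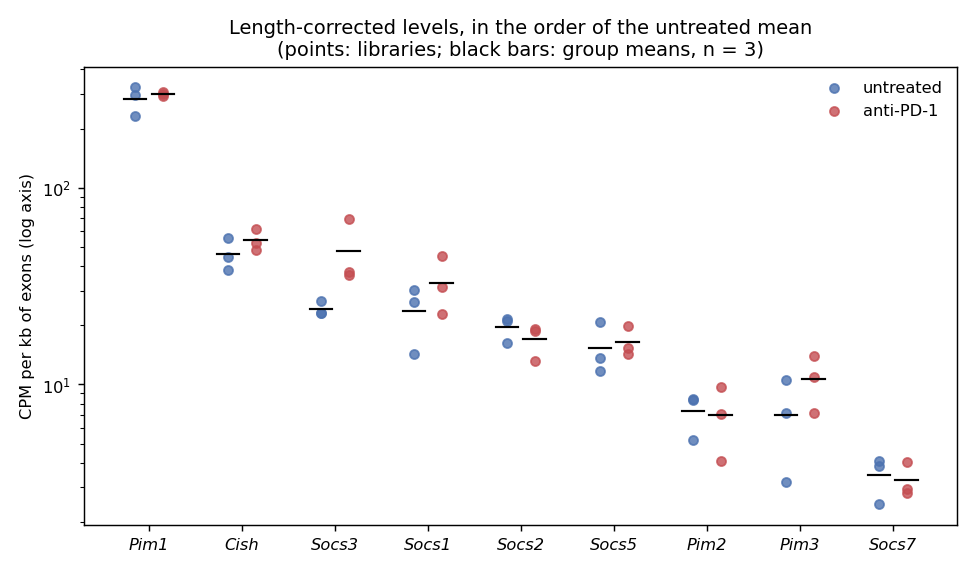
Levels of the 9 genes in CPM per kb of exon (log axis), 1 point per library, untreated in blue and anti-PD-1 in red, with black bars at the group means (n = 3). Pim1 lies at means of 284 and 299.6 CPM per kb, and the Socs3 points of the 2 groups do not overlap.

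The comparison of interest was that of anti-PD-1 with untreated Tregs, gene by gene. Socs3 was the member that differed most, with a level about 1.95-fold higher after anti-PD-1, and it was the one member whose groups did not overlap. For the other 8 genes the groups overlapped and the 95% intervals of the fold changes included 0 on the log2 scale. No member passed the test over all genes in edgeR (Benjamini-Hochberg adjusted p from 0.161 for Socs3 to 0.972 for Socs7), where 3 of 10352 genes passed (0.0290%). At an unadjusted p under 0.05 there was 1 member of 9, Socs3, against 860 of all 10352 genes (8.31%), and it was also the 1 member that DESeq2 called. Groups without overlap were found for 1410 of those 10352 genes (13.6%), and for 1 of the 9 members. Since the members were listed with this contrast in view, nothing is read from either share. Fewer cells expressing a gene and less RNA per cell cannot be told apart in bulk RNA.

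Among the SOCS genes, Socs3 encodes the inhibitor that docks on gp130 and blocks JAKs directly. The gene lies on chromosome 11 (mm10, 117966087 to 117969366, minus strand) with 2 exonic blocks. Libraries 1, 2 and 3 (untreated) held 72.5, 62.9 and 63.2 CPM of it, and libraries 4, 5 and 6 (anti-PD-1) held 98.2, 102 and 188 CPM. All 3 anti-PD-1 values lay above the untreated ones, and library 6 stood well above libraries 4 and 5. The untreated values were close together (coefficient of variation 8.24%), those after anti-PD-1 were not (39.4%). On the log2 scale the difference was 0.96 ± 0.23 (SE, 95% interval 0.49 to 1.43). Without anti-PD-1 library 6 it was 0.59 (edgeR adjusted p = 0.623, range over the alternatives 0.00432 to 0.623).

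The tools differed on Socs3. DESeq2 gave it an adjusted p of 0.0317 and called it, as 1 of 34 genes called among the 4331 genes with an adjusted p (0.785%). EdgeR with no filter on low counts also called it (adjusted p = 0.00432), and the other alternatives did not.

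Socs1 encodes an inhibitor of JAK kinases that acts on interferon and common gamma chain cytokine signals. The gene lies on chromosome 16 (10783809 to 10785536, minus strand). Untreated libraries held 40.7, 35.0 and 19.2 CPM, and those after anti-PD-1 41.7, 30.4 and 60.0 CPM. Library 6 was again the highest of all and untreated library 3 the lowest, while the remaining 4 lay close together. Its log2 fold change was 0.47 ± 0.30 (SE, 95% interval -0.15 to 1.09), and it was 0.19 without anti-PD-1 library 6 and 0.21 without untreated library 3.

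Cish, a STAT5 target whose product dampens interleukin-2 and T cell receptor signals, lies on chromosome 9 (107296689 to 107301961, plus strand). Its untreated values were 82.6, 119.7 and 96.0 CPM, beside 105, 133 and 113 CPM with the antibody. The groups overlapped, with untreated library 2 above anti-PD-1 libraries 4 and 6. The log2 fold change was 0.24 ± 0.19 (SE, 95% interval -0.16 to 0.63), an interval that holds both no change and a rise by 1.5-fold. The fold change itself was 0.12 without untreated library 1, 0.39 without untreated library 2 and 0.13 without anti-PD-1 library 5.

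Socs2, another STAT5 target and a brake on growth hormone signaling, lies on chromosome 10 (95411490 to 95416857, minus strand). It was the SOCS member with the lowest fold change. It had 56.8, 58.3 and 44.0 CPM without and 50.6, 51.5 and 35.6 CPM with the antibody. Library 6, in which Socs3 and Socs1 were highest, was here the lowest of all. On the log2 scale the difference was -0.20 ± 0.24 (SE, 95% interval -0.70 to 0.29), and it was -0.054 without library 6.

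Socs5 (chromosome 17, 87107679 to 87137588, plus strand) and Socs7 (chromosome 11, 97362551 to 97398542, plus strand) have longer N-terminal parts than the other 4 SOCS members. Socs5 was measured at 90.9, 60.0 and 51.3 CPM in untreated libraries, against 62.9, 67.3 and 87.0 CPM in treated ones. For Socs7 the values were 17.3, 28.6 and 27.0 CPM, against 28.2, 20.7 and 19.8 CPM. Both genes had untreated library 1 at one end of their range, Socs5 at the top and Socs7 at the bottom. The log2 fold changes were 0.09 ± 0.23 (95% interval -0.38 to 0.57) and -0.07 ± 0.32 (-0.74 to 0.60) (SE), and the sign of each turned when single libraries were left out, to -0.07 for Socs5 without untreated library 3 and to 0.07 for Socs7 without untreated library 2.

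The remaining SOCS genes, Socs4 and Socs6, stood at log2 fold changes of -0.28 ± 0.23 and -0.32 ± 0.40 (SE), with overlapping groups. The level of Socs4 was 60.1 ± 10.3 CPM in the untreated and 49.4 ± 4.59 CPM in the treated group (SD, n = 3).

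Pim1, a kinase that STAT5 and STAT3 are known to induce, lies on chromosome 17 (29491045 to 29495459, plus strand). It reached 568, 519.7 and 404 CPM in libraries 1, 2 and 3, and 536, 515 and 525 CPM in libraries 4, 5 and 6. All 3 anti-PD-1 values fell inside the untreated range, and they lay close together (coefficient of variation 2.04%, against 16.9% untreated). Its log2 fold change was 0.08 ± 0.15 (SE), with a 95% interval from -0.23 to 0.39, the narrowest among the members.

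Pim2 promotes survival and growth in lymphocytes and lies on chromosome X (7878306 to 7883432, plus strand). The untreated values were 17.3, 17.0 and 10.6 CPM, and the treated ones 8.34, 19.9 and 14.4 CPM. The anti-PD-1 libraries held both the highest and the lowest value. The log2 fold change was -0.09 ± 0.41 (SE, 95% interval -0.94 to 0.76), which includes both a fall and a rise by 1.5-fold, at a depth of 44 to 108 counts per library.

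Pim3, the member with the second highest fold change, lies on chromosome 15 (88862194 to 88865726, plus strand). In untreated libraries it stood at 7.68, 25.6 and 17.4 CPM, in treated ones at 17.3, 33.7 and 26.4 CPM. Untreated library 1 was the lowest and anti-PD-1 library 5 the highest, a 4.39-fold range, the widest of the 9 genes. The log2 fold change of 0.62 ± 0.39 (SE, 95% interval -0.18 to 1.43) rested on single libraries, being 0.26 without untreated library 1, 1.05 without untreated library 2 and 0.38 without anti-PD-1 library 5.

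**Figure D2:**
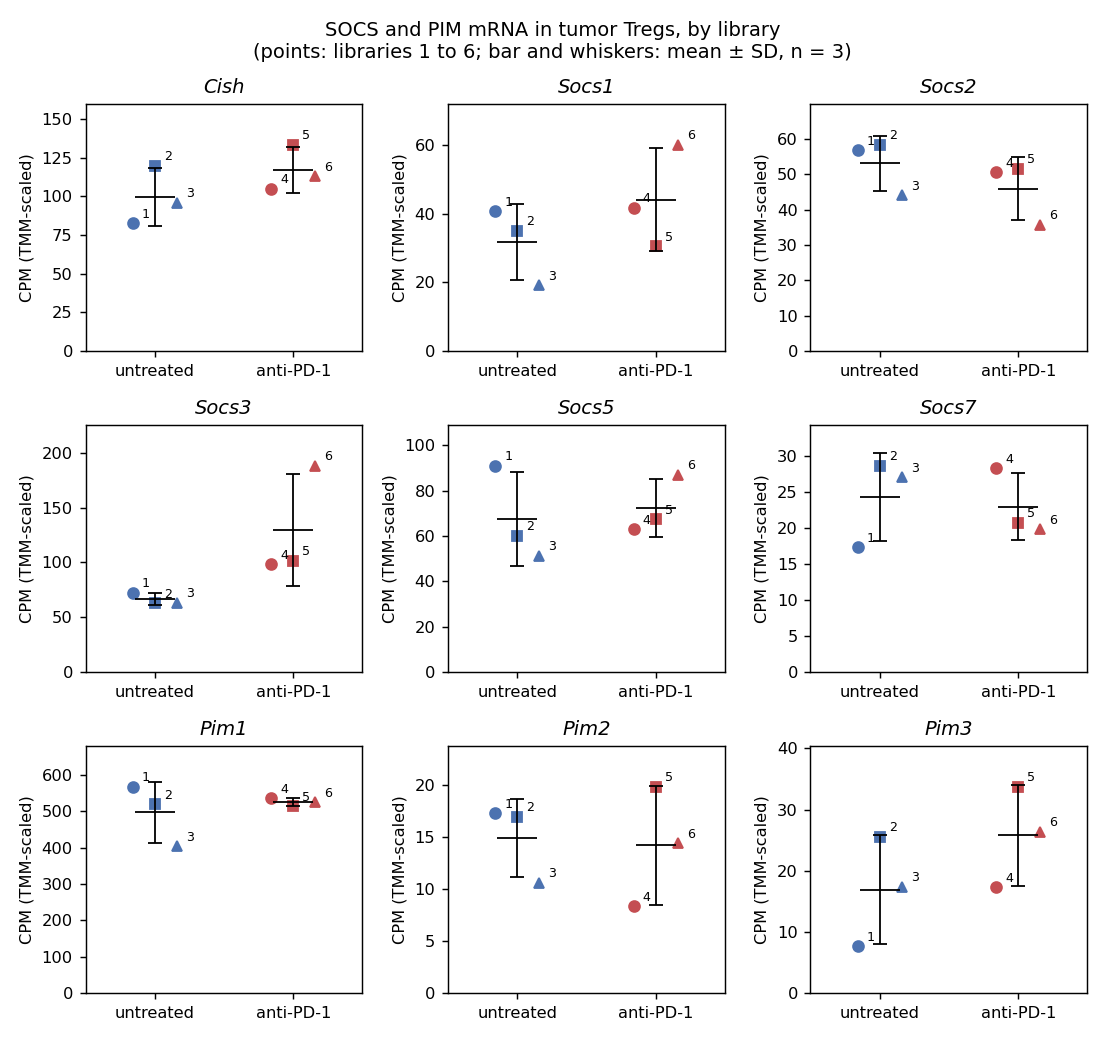
CPM (TMM-scaled) of each of the 9 genes in each library; points carry the library number and bars show mean ± SD (n = 3). Socs3 runs from 62.9 to 72.5 CPM without treatment and from 98.2 to 188 CPM with it, while in the other 8 genes the groups overlap.

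**Figure D3:**
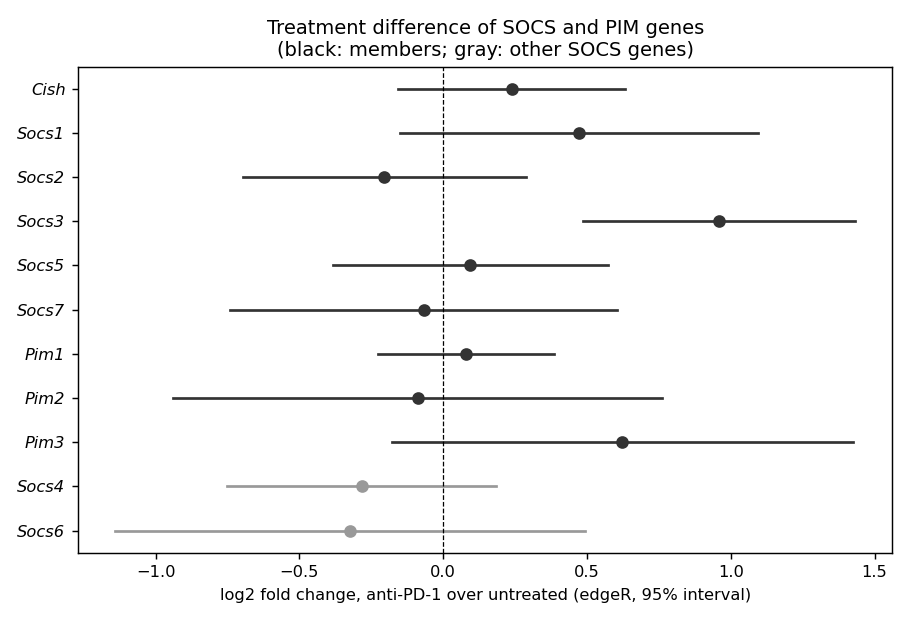
Log2 fold changes of anti-PD-1 over untreated with 95% intervals from edgeR for the 9 members (black) and for Socs4 and Socs6 (gray). The interval of Socs3 runs from 0.49 to 1.43, and the intervals of the other genes include 0.

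Proportions within a library do not depend on how libraries are scaled. Per kilobase, Socs3 made up 19.1%, 16.04% and 20.4% of the summed level of the 6 SOCS members in libraries 1, 2 and 3, against 23.6%, 23.5% and 34.2% in libraries 4, 5 and 6. The groups did not overlap in this share. The ratio of Socs3 to Cish was 0.70, 0.42 and 0.52 untreated and 0.74, 0.60 and 1.32 after anti-PD-1. Here the groups overlapped, since library 5 lay below untreated library 1, and library 6 was the one in which Socs3 exceeded Cish. The ratio of Socs3 to Socs2 was 1.26, 1.07 and 1.42 untreated and 1.92, 1.95 and 5.23 after anti-PD-1, without overlap. Against Socs1 the ratio was 0.88, 0.88 and 1.62 in libraries 1, 2 and 3 and 1.16, 1.64 and 1.54 in libraries 4, 5 and 6, with overlap.

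The genes most like Socs3 were found by the root-mean-square difference of log2 CPM, centered over the 6 libraries. The nearest of all non-members were Txk (0.14), a Tec family kinase of T cells, Ier2 (0.15), an immediate early gene, Ssbp2 (0.15), Igf1r (0.16), the receptor of insulin-like growth factor 1, and Rab3ip (0.17). In each of these 5 the anti-PD-1 libraries lay above all untreated ones, which closeness to Socs3 largely fixes. Among the members, Socs1 came nearest to Socs3 at 0.39, and Socs2 was farthest at 0.74.

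Ier2 is a gene that cells switch on within minutes of stimulation or tissue dissociation. It belongs to a list of 24 dissociation and immediate early genes, heat shock genes among them, that was set beside Socs3. Socs3 is itself known to be induced early. All 24 lay above 0, against 5191 of 10352 over all tested genes. Their median log2 fold change was 0.37 (0.60 without untreated library 1 and 0.55 without anti-PD-1 library 4), against 0.00 over all tested genes. Since the list was drawn up with earlier results of these data known, nothing is read from these values. Klf2 and Jun rose in edgeR's test (adjusted p = 1.25e-05 and 0.0034). Fos (log2 fold change 0.91 ± 0.18, SE) and Ier2 (0.92 ± 0.19) did not pass it. DESeq2 called both (adjusted p = 0.000727 and 0.00348) and also Hspa1a, a heat shock gene (0.000109). The list summed to 6860 to 8058 CPM in the untreated group and 9247 to 10539.5 CPM in the treated group. Ier2 stood at 81.0, 84.9 and 86.0 CPM in libraries 1, 2 and 3 but 141, 132 and 205 CPM in libraries 4, 5 and 6, with library 6 highest as in Socs3, which its choice as a near profile largely fixes. The list as a whole was highest in library 5, at a mean log2 CPM of 7.77 against 7.47 in library 4 and 7.48 in library 6. Fos was also highest there. Jun (223, 284 and 290 CPM in libraries 4, 5 and 6) and Klf2 (316, 403 and 446 CPM) were highest in library 6. The part of the list's common difference in that of Socs3 was not tested.

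**Figure D4:**
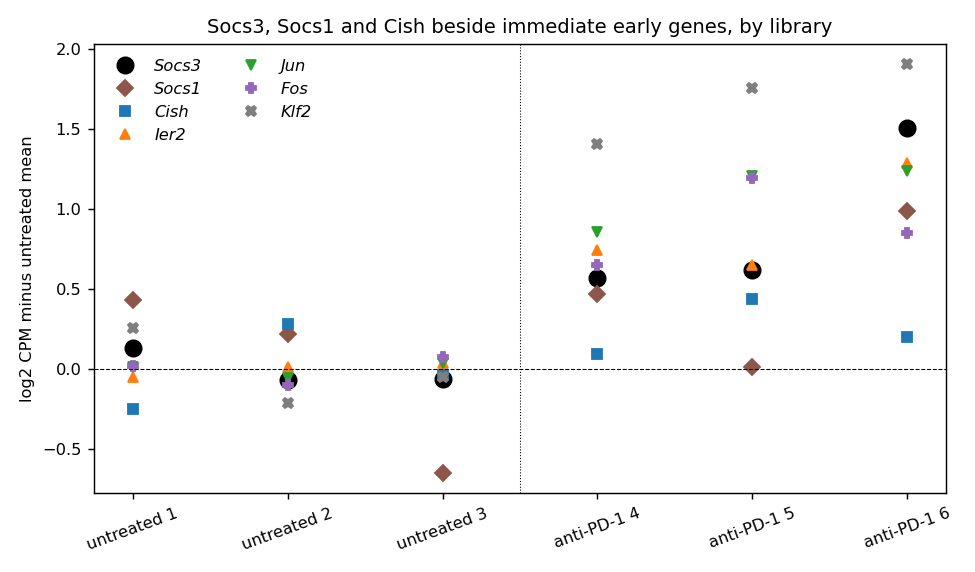
Log2 CPM minus the untreated mean for Socs3, Socs1 and Cish and for Ier2, Jun, Fos and Klf2 in each library. In anti-PD-1 libraries 4, 5 and 6 Socs3 lies at 0.57, 0.62 and 1.51. Ier2, Jun, Fos and Klf2 also lie above 0 in all 3. The latter were named for having the smallest p of their list, which largely fixes this.

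Myeloid cells also express Socs3, so the purity of the sort was read from marker genes. All 8 Treg markers were detected, summing to 6622 to 7377 CPM in the untreated and 5633 to 6392 CPM in the treated group, without overlap. The members of this list did not go one way. Ctla4 (1492 to 1839 against 1190 to 1317 CPM) and Ikzf2 (2000 to 2360 against 1681 to 1918 CPM) were lower in every treated library. Foxp3 (437 to 460 against 461 to 562 CPM) and Cd4 (365 to 459 against 467 to 496 CPM) were higher in every treated library, and Foxp3 did not pass edgeR's test (adjusted p = 0.731). Ctla4 and Ikzf2 did not pass it either, since 0 of all tested genes passed as lower. Groups without overlap were found for 13.6% of all tested genes. Neutrophil markers (8 of 9 matched) summed to 11.4 to 20.4 and 1.52 to 4.33 CPM in these groups, lower where Socs3 was higher. Nearly all of that was Ltf, while S100a9, Camp, Elane and Csf3r were at 0 in every library. Macrophage and monocyte markers (9 of 10 matched, C1qa at 0) summed to 16.6 to 28.4 and 15.04 to 36.6 CPM. Library 6, with the highest Socs3, had the lowest sum. Itgam was the largest part of the sum in every library. It stood at 9.45, 22.7 and 11.3 CPM in libraries 1, 2 and 3 and at 22.6, 13.9 and 7.01 CPM in libraries 4, 5 and 6. Lyz2 was lowest in library 1 instead, at 0.32, 2.68 and 4.22 CPM untreated and 4.36, 3.31 and 3.71 CPM treated. CD8 T cell markers summed to 11.05 to 31.1 and 18.7 to 51.1 CPM, and dendritic cell markers (Clec9a at 0) to 33.4 to 47.4 and 23.7 to 57.1 CPM. The endothelial list was higher in every treated library (64.5 to 73.7 against 83.6 to 123 CPM), all of it Pecam1, which leukocytes also express, with Cdh5, Kdr, Tie1 and Vwf at 0. NK cell markers summed to 7.68 to 9.11 CPM untreated and 2.68 to 7.66 CPM treated (Klra8 at 0), so the sums barely missed overlap. None of the genes of that list kept the groups apart alone. Ncr1 in library 4 (2.84 CPM) lay above untreated libraries 1 and 2 (1.76 and 1.25 CPM). Klrb1c in library 5 (3.52 CPM) lay above untreated libraries 2 and 3 (0 and 1.52 CPM). Fibroblast and tumor cell markers (Dcn, Krt8 and Krt14 at 0) summed to 1360 to 1767 and 1035 to 1657 CPM, with overlap. Nearly all of that was Vim. Fn1 of that list stood at 23.2 to 45.8 CPM untreated and 30.9 to 43.8 CPM treated. B cell markers (3.20 to 10.8 and 4.95 to 19.0 CPM), mast cell and basophil markers (7.42 to 16.1 and 13.6 to 18.6 CPM) and erythroid markers (0 to 3.75 and 1.33 to 3.73 CPM) also overlapped. The part of other cells in the member results was not tested.

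Other genes of the pathway were taken from lists. None of the genes on the lists below passed edgeR's test over all genes, and DESeq2 called 2 of them, Bcl2 and Fos. The counts at an unadjusted p under 0.05 stand beside 8.31% of all tested genes, and groups without overlap beside 13.6% of them. The genes named are mostly those with the smallest p of each list, and values in brackets are log2 fold changes ± SE. Of 24 cytokine genes that signal through JAKs, 4 had enough counts to be tested, among them Il10 (-0.69 ± 0.32, the 1 with an unadjusted p under 0.05) and Ifng (-0.48 ± 0.36). Il2 reached at most 13 counts in any library and Il6 at most 1. So 2 of the ligands known to induce Cish and Socs3 were barely detected in these libraries. The libraries were made from sorted GFP-positive cells, so ligands made by other cells of the tumor were not measured.

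The list of receptors of the common gamma chain family, through which interleukin-2, 4, 7, 15 and 21 act, had 7 of 9 genes above 0. Its median was 0.21, which was 0.095 without untreated library 3. Among those above 0 was Crlf2 (0.45 ± 0.45, SE), which is on the list but does not pair with the common gamma chain. An unadjusted p under 0.05 was found for 1 in each direction. Il4ra was at 163, 187 and 159 CPM in libraries 1, 2 and 3 and at 237, 229 and 222 CPM in libraries 4, 5 and 6, without overlap, with a log2 fold change of 0.44 ± 0.16 (SE). Il2ra, the high-affinity chain, had a fold change in the other direction (-0.35 ± 0.16), with overlapping groups. Of the other JAK-coupled receptors 11 of 21 were tested, with 8 above 0 and a median of 0.08. One of these was Il6st, which encodes gp130, the receptor chain on which Socs3 acts. It stood at 140.1, 170.5 and 182 CPM in the untreated and 192, 173 and 247 CPM in the treated libraries, a log2 fold change of 0.31 ± 0.17 with overlap, and was again highest in library 6.

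None of the kinases and transcription factors of the pathway had an unadjusted p under 0.05. The 4 JAK genes had a median of 0.04, with Jak2 at -0.27 ± 0.18 (SE), and the 7 STAT genes a median of 0.05 (-0.073 without untreated library 3), with Stat5b at 0.30 ± 0.17. Stat3, on which Socs3 induction depends in many cells, had 464 ± 40.5 CPM in the untreated and 429 ± 13.3 CPM in the treated group (SD, n = 3), and Stat5a 112 ± 16.6 and 113 ± 21.3 CPM.

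The ubiquitin ligase that SOCS proteins recruit is built from elongins B and C, a cullin and a RING protein. Of its 9 listed genes 7 lay below 0, with a median of -0.22, and 2 had an unadjusted p under 0.05. The elongin C gene, Tceb1 in the deposited table, had 81.3, 58.8 and 70.3 CPM in libraries 1, 2 and 3 and 40.9, 55.7 and 52.3 CPM in libraries 4, 5 and 6, without overlap. Its log2 fold change was -0.51 ± 0.22 (SE). Rnf7, the RING protein that works with cullin 5, also had groups without overlap (-0.89 ± 0.40), and Nedd8, the modifier that activates cullins, stood at -0.57 ± 0.29. The elongin B gene (Tceb2, 0.53) and Rbx1 (0.41) were the 2 above 0.

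Among 14 other inhibitors of JAK and STAT signaling, 7 lay above and 7 below 0 (median 0.01, and 0.098 without untreated library 1), with 1 in each direction at an unadjusted p under 0.05. Ptpn6, which encodes the phosphatase SHP-1, had 74.1, 75.8 and 59.7 CPM in untreated libraries, against 36.4, 51.3 and 51.1 CPM in treated ones, without overlap, a log2 fold change of -0.60 ± 0.23 (SE). Sh2b3, an adaptor that restrains JAK2, had a fold change of 1.45 ± 0.60, but its groups overlapped and library 4, at 21.0 CPM, carried most of it.

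Target genes of STAT5 other than the members had 11 of 21 above 0 and a median of 0.07, which was -0.016 without untreated library 2 and -0.11 without untreated library 3. At an unadjusted p under 0.05, 3 were higher and 5 lower. Bcl2, a survival factor, had 20.3, 23.1 and 17.7 CPM in libraries 1, 2 and 3, and 33.4, 43.5 and 91.7 CPM in libraries 4, 5 and 6. Its groups did not overlap and its log2 fold change was 1.46 ± 0.34 (SE, edgeR adjusted p = 0.136, DESeq2 adjusted p = 0.0127). Ccnd3 (0.77 ± 0.26) and Dusp5 (0.47 ± 0.17) were the next by p. The 5 lower genes were Id2 (-0.49 ± 0.18), Prdm1 (-0.48 ± 0.18), Gzmb (-0.998 ± 0.34), Nfil3 (-0.47 ± 0.19) and Il2ra. Genes of the STAT3 response had 7 of 15 above 0 and a median of -0.11, 1 higher and 2 lower at an unadjusted p under 0.05, with Fos at 0.91 ± 0.18, Maf at -0.50 ± 0.15 and Hif1a at -0.36 ± 0.14. The lists of STAT5 and STAT3 targets are textbook lists from several cell types and are not lists of targets in tumor Tregs. They were not sorted by whether a STAT raises or lowers a gene. Their medians therefore give no direction of a STAT response.

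For the PIM kinases, 22 of 23 listed substrates and partners were tested, with 14 above 0 and a median of 0.08. None had an unadjusted p under 0.05 in edgeR. Runx1 (0.32 ± 0.16, SE) was higher and Cbx3 (-0.34 ± 0.20), Eif4ebp1 (-1.14 ± 0.70) and Bad (-1.29 ± 0.80) lower in every anti-PD-1 library than in any untreated one. Groups without overlap, here 1 higher and 3 lower of 22, were found for 13.6% of all tested genes, so nothing is read from them. Bad, a cell death gene whose product PIM kinases are known to inactivate, and Eif4ebp1, a translation inhibitor, were weakly expressed. Eif4ebp1 had 5.48 ± 1.55 and 2.46 ± 1.28 CPM and Bad 4.19 ± 2.28 and 1.67 ± 0.62 CPM (SD, n = 3).

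**Figure D5:**
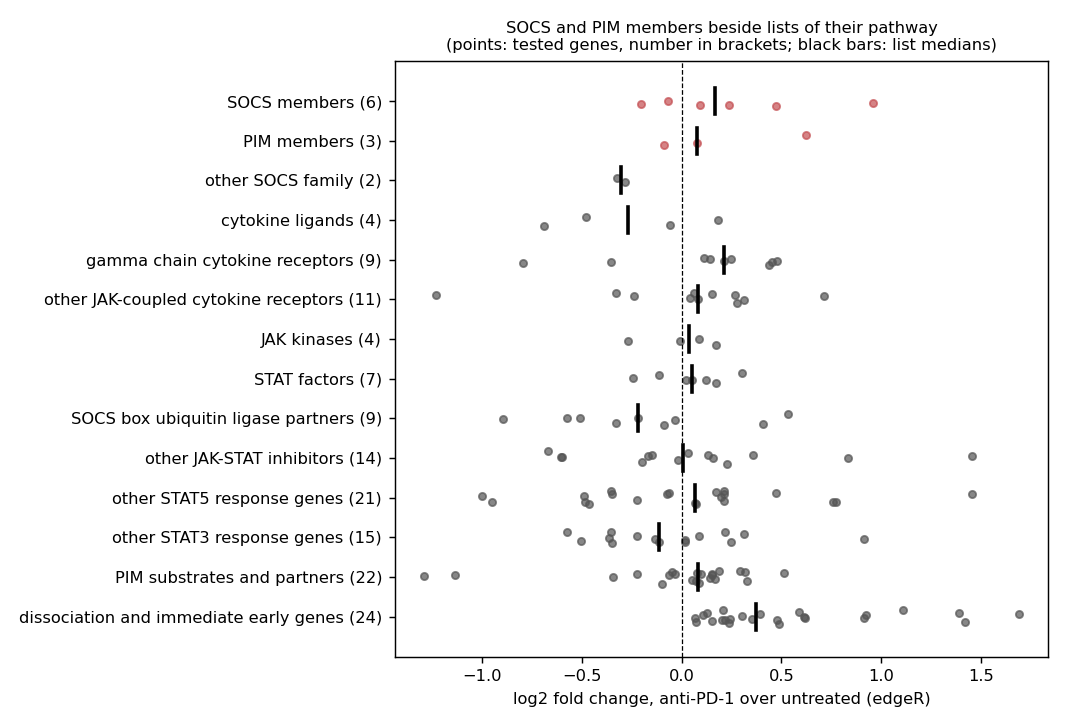
Log2 fold changes of anti-PD-1 over untreated for the tested genes of each list (points, with the number of genes in brackets) and list medians (black bars), members in red. All 24 dissociation and immediate early genes lie to the right of 0, and most other lists lie on both sides of it. The lists were drawn up with earlier results of these data known.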

How the data were processed

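RNA from sorted tumor Tregs was sequenced in 6 libraries, 3 per group. Per the file headers, the authors deposited raw counts from featureCounts 1.5.2 in paired-end, stranded mode (setting 1), on a UCSC mm10 annotation and alignments with bbmap in their names. Aligner settings are not stated in these sources. The gene length is the deposited exonic length. One unnamed column (1 in all) was not used. No exon of a member overlapped another gene's exon in that table.

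Total counts were 4766533 to 6686774 per library. Genes passed filterByExpr (count 10, total 15), leaving 10352 of 23420. EdgeR 4.0.16 in R 4.3.3 (TMM, glmQLFit with robust shrinkage in its newer form, glmQLFTest, two-sided, Benjamini-Hochberg over all tested genes at 0.05) gave fold changes, and SEs came from its F statistic. CPM values use TMM. A chi-square of counts between any pair of libraries was at least 9.98 per degree of freedom, so none was a copy. Alternatives were DESeq2 1.42.0, limma-voom 3.58.1 with and without quality weights, other scalings and filters, and leaving out each library. The tests were checked on simulated data.

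The members and the 25 gene lists (256 entries, 4 without a matching symbol, 2 matched by an older one) were chosen with earlier results of these data known. Named were all members, the up to 3 genes per pathway list (4 of the dissociation list) with smallest p, and the 5 profiles nearest to Socs3. Stat3, Stat5a, Tceb2, Rbx1, Bad, Il2 and Il6 were named after their values were seen. Also named outside this rule were Crlf2, Id2, Prdm1, Gzmb, Nfil3, Hspa1a and single marker genes. Protein sequences were not used here.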

Additional observations from a re-analysis of the deposited data

How the results depend on the processing

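The number of genes that passed over all genes was 3 in edgeR as reported and 34 in DESeq2, 5 in limma-voom, 12 in limma-voom with quality weights, 5 in edgeR without robust shrinkage, 5 with upper quartile scaling, 7 with library size only, 52 with no filter and 6 with at least 10 counts in every library. Leaving out 1 library gave 1 (without anti-PD-1 5) to 19 (without untreated 1), with 6 without untreated 2, 5 without untreated 3, 3 without anti-PD-1 4 and 5 without anti-PD-1 6. Of the members, 0 passed in edgeR as reported, where 1 had an unadjusted p under 0.05, and 1 passed in DESeq2 and 1 with no filter, Socs3 both times. Leaving out single libraries moved the log2 fold change of Pim1 from -0.053 to 0.18, of Pim2 from -0.41 to 0.19, of Socs5 from -0.073 to 0.38 and of Socs7 from -0.27 to 0.067, so that their signs turned. Cish, Socs1, Socs2, Socs3 and Pim3 kept their direction in all 16 alternatives, Socs3 between 0.59 and 1.13. The cause of these differences was not tested. The earlier form of the quasi-likelihood fit, added after seeing the data, gave Socs3 an edgeR adjusted p of 0.303. With no filter the test ran over 14756 genes, and leaving out a library left a group of 2. Pim2, Pim3 and Socs7 had the fewest counts and the widest intervals.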

Other observations

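Over the 9 members no library stood at the extremes throughout. Untreated library 1 was highest in 2 and lowest in 3, anti-PD-1 library 5 was highest in 3, and anti-PD-1 library 6 was highest in 2 and lowest in 1. Among members and pathway genes, library 6 held the highest value of Socs3 (188 CPM), Socs1 (60.0 CPM), Il6st (247 CPM), Stat5b (325 CPM), Bcl2 (91.7 CPM) and Ier2 (205 CPM), and the lowest of Socs2 (35.6 CPM) and Socs4 (44.1 CPM). These genes were picked after their values were seen, and no test was made. Pim1, at 525 CPM in that library, lay between the other anti-PD-1 libraries.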
